A study of Mus musculus with 6 samples.

Results

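Solute carriers are membrane proteins that move amino acids, sugars, metals, ions, nucleosides and other small molecules across the cell surface and the membranes of organelles. The genes examined are those whose array probes name 1 symbol that begins with Slc and a digit, without 8 transporters of iron, lactate, glucose, cystine and arginine (Slc11a1, Slc11a2, Slc40a1, Slc16a1, Slc16a3, Slc2a1, Slc7a11 and Slc7a2). This rule gave 181 genes on 246 probes, of 10698 named genes on the array, and 163 of them had a ratio on all 6 arrays, of 9607 genes that did. RAW 264.7 cells, a mouse macrophage-like line, had been given lipopolysaccharide (LPS, 100 ng/ml) with LPS-binding protein (100 pM) for 16 h, and untreated cells of the same line were the control. Each of the 6 arrays carried RNA of treated and of untreated cells, with treated RNA in Cy5 on 3 arrays and in Cy3 on 3, in sets 1, 2 and 3 of each orientation. Whether the sets are separate cultures is not stated, so the p-values cover the spread of these samples only, and that spread may be technical. All values are log2 ratios of treated over untreated cells, and an error is the SD over the 3 set values, each the mean of the arrays of both orientations with that number.

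LPS is the outer-membrane glycolipid of Gram-negative bacteria, and macrophages sense it through the Toll-like receptor TLR4. Carriers work as uniporters, as symporters that use a gradient of sodium or protons, or as exchangers, and their numbered families are grouped by sequence and often share a kind of substrate. In macrophages they are known for feeding activated cells with amino acids and sugar, for withholding metals from microbes, and for moving peptides and nucleosides out of the lysosome.

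Which channel is on top of the deposited ratios is not stated. Cy5 over Cy3 is the likely reading and was used: the labels name Cy5 as the test channel, the orientations had opposite signs, and the LPS-induced genes Il6, Il1b and Ptgs2 came out higher in treated cells by 5.11, 4.63 and 4.26. Across probes, which are not independent replicates, the turned arrays correlated at 0.77 to 0.832 within an orientation and at 0.585 to 0.831 between orientations. Ratios give no level and no signal over background, so cell identity could be read only as ratios. Of 8 measured macrophage and leukocyte markers 7 rose, by 0.34 (Cd68, Ptprc) to 2.13 (Fcgr1), with Adgre1 at 1.79, Mpeg1 at 1.61, Lyz2 at 0.95 and Spi1 at 0.44, and Csf1r fell by 0.27. Of markers of other cells, Cd79a of B cells rose by 0.35, and Cd3e, Cd3g, Col1a1 and Col1a2 did not pass. The part of these shifts in the carrier results was not tested. A fall or rise cannot be told apart from a change in the share of cells that hold the RNA.

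Of the 163 measured carriers, 41 rose and 15 fell at an adjusted p under 0.05, the threshold used throughout (limma, Benjamini-Hochberg over all 9607 genes). These 56 genes are 34.4% of the carriers, beside 31.4% of all genes. The share that rose was 25.2%, beside 16.8% of all genes, and the share that fell was 9.20%, beside 14.6% of all genes. Leaving out set 1 left 35 changed carriers (21.5%, beside 22.5% of all genes), 25 of them higher. Leaving out set 2 left 37 (22.7%, beside 23.6% of all genes), also with 25 higher. In both cases the carrier share was below that of all genes. The median carrier stood at 0.041, beside -0.01 for all genes, and was above 0 in each set, at 0.05, 0.04 and 0.07. All 3 set values lay above 0 for 66 carriers, or 40.5%, and below 0 for 35, or 21.5%, beside 28.96% and 28.91% of all genes. Most of the changes were small. The median size of the 56 changes was 0.42, and 49 of them were under 2-fold. At least 2-fold rises were seen for 6 carriers, beside 3.67% of all genes, and an at least 2-fold fall for 1, beside 0.781%. When changes had to exceed 1.5-fold (limma's treat), 8 carriers passed, or 4.91%, beside 4.68% of all genes. The 6 at least 2-fold risers were Slc15a3, Slc6a4, Slc31a2, Slc28a2, Slc9a3 and Slc39a5, and the 1 at least 2-fold fall was that of Slc2a3.

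**Figure D1:**
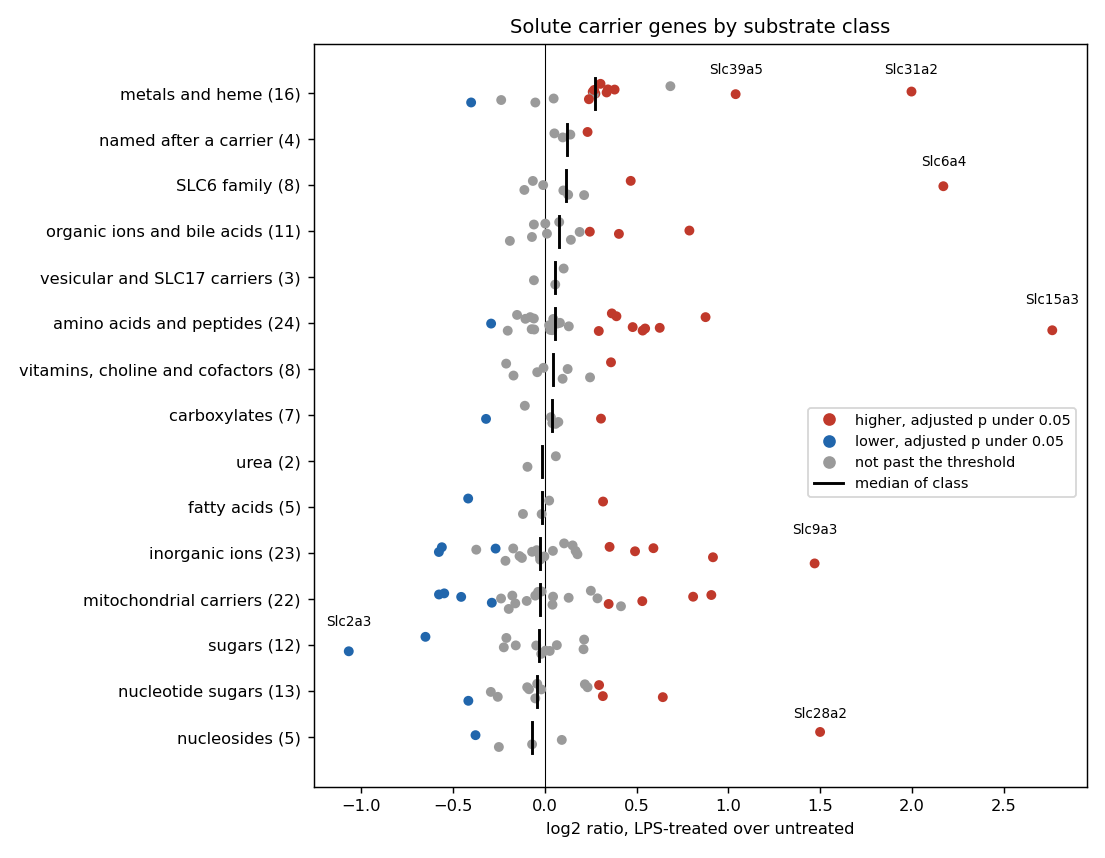
Log2 ratio of treated over untreated cells (horizontal axis, mean of 3 sets) for the 163 measured carrier genes, 1 point a gene, in rows by substrate class with the number of genes in brackets. Black bars are class medians and colours give the limma call. The metal class has the highest median (0.27), and the 6 carriers with at least 2-fold rises lie in 5 different classes.

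Among amino acid and peptide carriers 9 of 24 rose (37.5%, beside 16.8% of all genes) and 1 fell (4.17%, beside 14.6%). Slc7a1, whose ratio followed the dye, was among the 9. The class median was 0.06, so that most of the class lay near 0 beside the genes that rose. Slc15a3, a proton-coupled carrier that exports peptides and histidine from endosomes and lysosomes, had the largest rise of all measured carriers. Its ratios were 2.91, 3.16 and 2.80 with treated RNA in Cy5 and 2.50, 2.68 and 2.54 with it in Cy3. All 6 arrays lay far above 0 and close together. The mean was 2.77 ± 0.14 (SD, n = 3 sets), a 6.8-fold rise (adjusted p = 2.64e-06), and its 2 probes gave 2.64 and 2.89. The other measured carriers of its family, Slc15a1 and Slc15a2, stood at 0.02 and -0.06 and did not pass the test. They are proton-coupled peptide carriers at the surface of cells such as those of gut and kidney. Slc15a4, also of this family, was not among the genes examined.

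Slc3a2 encodes the heavy chain of CD98, a single-span glycoprotein that brings several light chains of the Slc7 family to the cell surface. Its ratios were 1.01, 1.23 and 0.99 with treated RNA in Cy5 and 0.70, 0.68 and 0.64 with it in Cy3, with every Cy5 array above every Cy3 array and all above 0. The mean rise was 0.88 ± 0.07, or 1.83-fold (adjusted p = 0.000193), and its probes gave 0.88 and 0.87. A light chain outside the genes examined, the cystine carrier Slc7a11, rose by 2.42 (adjusted p = 2.5e-05). Of the 4 examined light chains that pair with Slc3a2, 1 passed the test. Slc7a7, whose complex exchanges cationic for neutral amino acids, had set values of 0.62, 0.69 and 0.57 and rose by 0.63 ± 0.06 (adjusted p = 0.000796). Slc7a5, the carrier of large neutral amino acids, had 0.18, -0.16 and 0.37, with set 2 below 0 and sets 1 and 3 above it, and did not pass (0.13, adjusted p = 0.441). Slc7a8, a second carrier of neutral amino acids, had 0.01, 0.01 and 0.10 and did not pass either (0.04, adjusted p = 0.744). Slc7a10, which carries small neutral amino acids and pairs with the same heavy chain, stood at 0.08. Whether the light chains differed from each other was not tested.

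The neutral amino acid exchangers Slc1a4 and Slc1a5, the second of which brings glutamine into cells, rose by 0.55 ± 0.23 (adjusted p = 0.00607) and 0.39 ± 0.13 (adjusted p = 0.01). The 2 probes of Slc1a4 disagreed, at 1.21 and -0.12, so its mean describes neither. Slc38a1, a sodium-coupled glutamine carrier, rose by 0.48 ± 0.04 (adjusted p = 0.00239). Slc43a3, placed here by its family and known as a carrier of purine nucleobases, rose by 0.53 ± 0.05 (adjusted p = 0.00157), and the cationic amino acid carrier Slc7a3 by 0.36 ± 0.20 (adjusted p = 0.0234). Slc1a2, the main glutamate carrier of astrocytes, was the only member of the class that passed below 0. It fell by 0.29 ± 0.08 (adjusted p = 0.0209), and 1 of its 3 probes gave -0.79, with the others at -0.08 and -0.02. Slc66a2 was next lowest at -0.20 and did not pass (adjusted p = 0.0661).

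Slc7a1, the widely expressed carrier of arginine and other cationic amino acids, passed at 0.29 ± 0.15 (adjusted p = 0.0345), but its ratio followed the dye. It was -0.78, -0.58 and -0.20 with treated RNA in Cy5 and 1.02, 1.29 and 1.01 with it in Cy3. All 3 arrays of one orientation were below 0 and all 3 of the other above it. It was the only carrier with a dye term past the threshold (dye term -0.81, adjusted p = 0.00685), or 0.613% of carriers beside 0.364% of all genes, and no direction is drawn from it. From the Cy5 arrays alone it was called lower, at -0.52 (adjusted p = 0.0348).

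**Figure D2:**
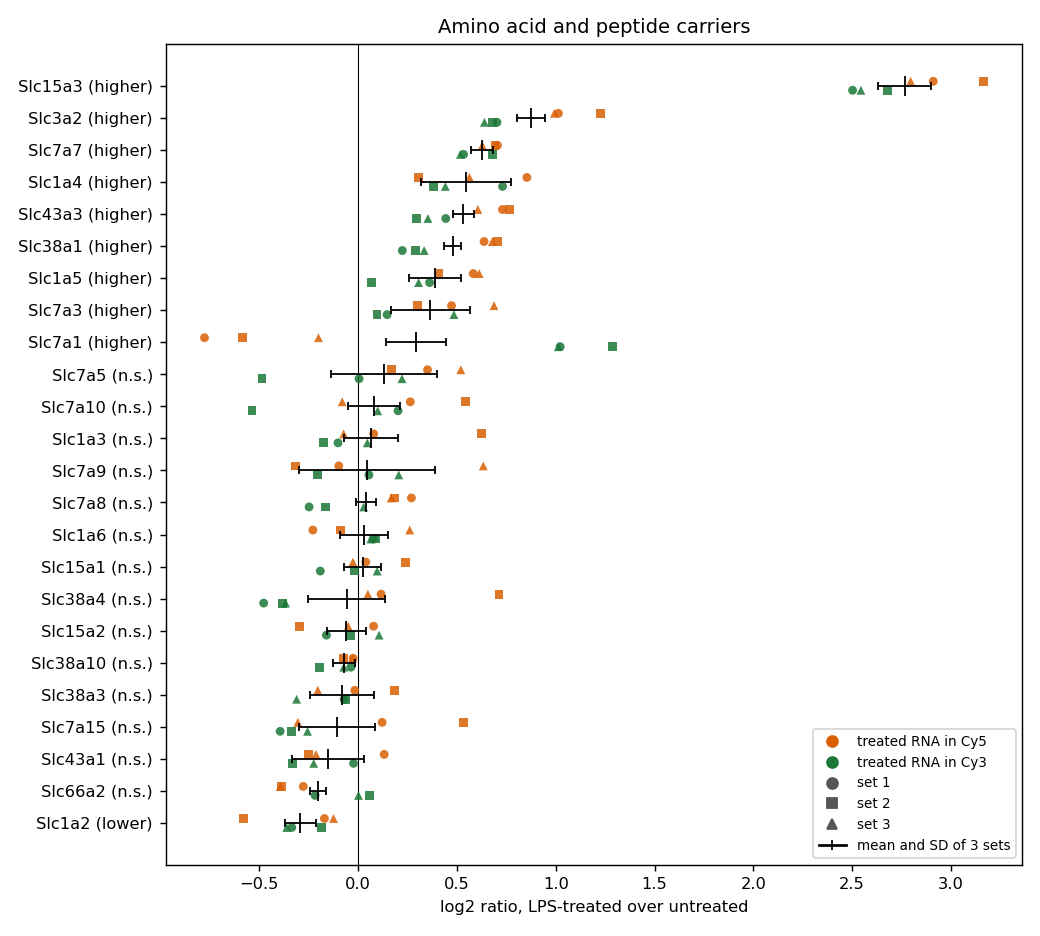
Log2 ratio of treated over untreated cells (horizontal axis) for the 24 measured amino acid and peptide carriers, 1 marker an array, with colour for the dye orientation, shape for the set, and bars for the mean and SD of the 3 sets. Slc15a3 stands alone at 2.77, Slc3a2 and Slc7a7 lie above 0 on all 6 arrays, Slc7a5 and Slc7a8 straddle 0, and Slc7a1 splits by dye.

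Metal carriers were the class with the largest share of risers, 10 of 16 (62.5%), beside 16.8% of all genes, and 1 of 16 fell. The class median was 0.27, and 0.29, 0.25 and 0.18 in sets 1, 2 and 3, beside 0.04 for all carriers. All 3 set values were above 0 for 12 of the 16. The class holds copper, zinc and magnesium carriers, some of which also take other metals, as Slc39a8 does manganese and iron. Slc31a2, which resides in endosomal and lysosomal membranes and acts on copper uptake, had ratios of 1.91, 2.23 and 1.88 with treated RNA in Cy5 and 1.88, 2.15 and 1.94 with it in Cy3. The arrays differed little, and all lay near a 4-fold rise. The mean was 2.00 ± 0.17 (4-fold, adjusted p = 1.21e-05).

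Zinc carriers fall into 2 families that work in opposite directions: Slc39 members bring zinc into the cytosol, from outside or from organelles, and Slc30 members move it out of the cytosol. Of the Slc39 family, 5 of 7 rose (71.4%, beside 16.8% of all genes) and none of the 7 fell. Of the Slc30 family 3 of 7 rose (42.9%) and 1 fell (14.3%, beside 14.6% of all genes). Without set 1 the only call kept in either family was that of Slc39a5. Slc39a5, which brings zinc into cells of the gut and pancreas, had ratios of 1.19, 1.13 and 0.86 with treated RNA in Cy5 and 1.13, 1.22 and 0.72 with it in Cy3 and a mean of 1.04 ± 0.22 (2.06-fold, adjusted p = 0.000354). Its 2 probes disagreed, however: 1 gave 2.07 and the other 0.01. The other 4 Slc39 genes rose by 0.24 to 0.34. They were Slc39a7 and Slc39a13 of the endoplasmic reticulum and Golgi, Slc39a9, and Slc39a8, which brings zinc, manganese and iron into cells. The call of Slc39a8 was lost in each fit on the 6 single arrays (adjusted p = 0.0714 to 0.214). Slc39a11 and Slc39a3 stood at 0.27 and 0.05 and did not pass.

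Among the exporters, Slc30a1, the zinc exporter of the cell surface, had ratios of 0.00, 0.03 and 0.14 with treated RNA in Cy5 and 0.76, 0.34 and 0.39 with it in Cy3. The Cy5 arrays were near 0 and the Cy3 arrays above it, and the mean of 0.27 ± 0.10 was a 1.21-fold rise (adjusted p = 0.0297). Slc30a6 and Slc30a7, which load zinc into the Golgi and secretory vesicles, rose by 0.38 ± 0.20 (adjusted p = 0.0202) and 0.26 ± 0.07 (adjusted p = 0.0308). Slc30a5, which forms a complex with Slc30a6 in the same membranes, was the only metal carrier that fell. Its ratios were -0.45, -0.75 and -0.28 with treated RNA in Cy5 and -0.38, -0.37 and -0.18 with it in Cy3, all below 0, with a mean of -0.40 ± 0.17 (adjusted p = 0.012). Slc30a9, known as a mitochondrial zinc exporter, was the other low member at -0.24 and did not pass (adjusted p = 0.0915). Slc41a3, of a magnesium carrier family, rose by 0.34 ± 0.21 (adjusted p = 0.0345).

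Except for Slc31a2 and Slc39a5, the rises of metal carriers were small and did not all last when a set was left out. The rise of Slc39a5 rests on 1 of its 2 probes. The number of metal carriers that rose was 2 without set 1, 4 without set 2 and 9 without set 3, and it was 3 from the Cy5 arrays alone and 7 from the Cy3 arrays alone. At a threshold of 0.01 it was 2. The class median lay between 0.26 and 0.30 over the 3 omissions and was 0.28 in the Cy5 arrays and 0.29 in the Cy3 arrays.

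**Figure D3:**
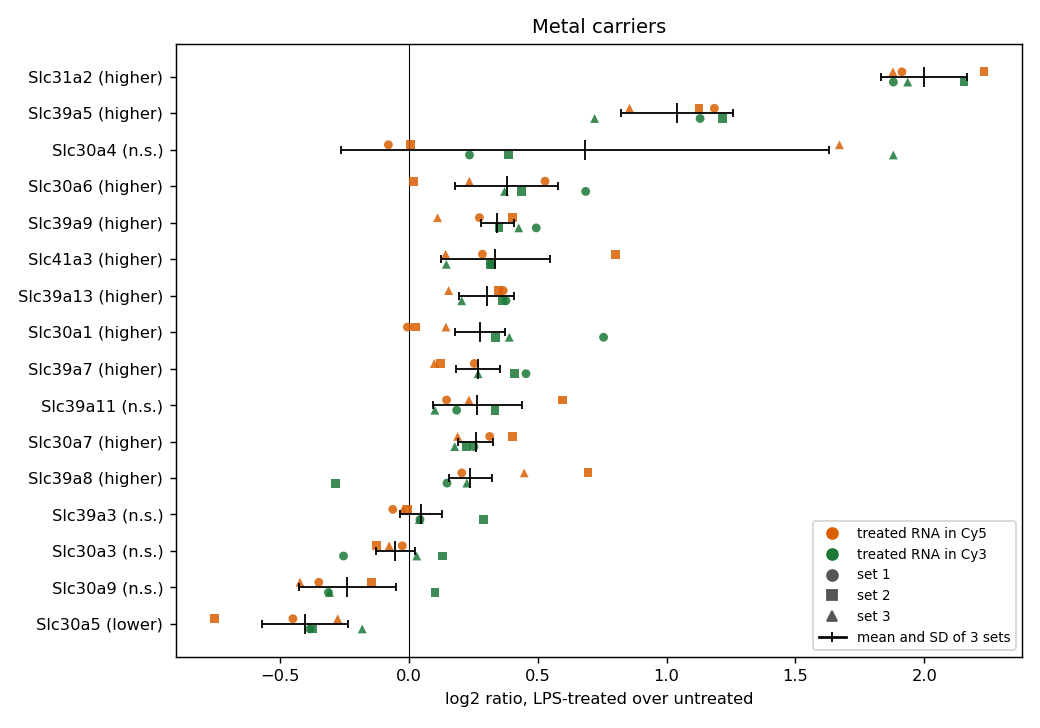
Log2 ratio of treated over untreated cells (horizontal axis) for the 16 measured metal carriers, 1 marker an array, with colour for the dye orientation, shape for the set, and bars for the mean and SD of the 3 sets. Slc31a2 at 2.00 and Slc39a5 at 1.04 stand apart, 8 others rose by 0.24 to 0.38, Slc30a5 fell, and the arrays of Slc30a4 lie apart by set.

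Because several zinc carriers are known to answer to cytosolic zinc through a transcription factor that reads metal response elements, the stretch before the gene's start was read for the core of that element. The windows of 250 bases come from RefSeq (build GRCm38.p6), which held 144 of the 181 carriers and all 16 measured metal carriers. The 4 windows below are those of the metal carriers with the largest mean rises, Slc31a2 and Slc39a5, the second with probes that disagreed. The others are of the surface exporter (Slc30a1) and the member that fell (Slc30a5). Capitals mark the core, TGCACNC or TGCGCNC on either strand. They are given 5′ to 3′ along the gene.
Slc31a2 (chr4:62286179-62286428, plus strand): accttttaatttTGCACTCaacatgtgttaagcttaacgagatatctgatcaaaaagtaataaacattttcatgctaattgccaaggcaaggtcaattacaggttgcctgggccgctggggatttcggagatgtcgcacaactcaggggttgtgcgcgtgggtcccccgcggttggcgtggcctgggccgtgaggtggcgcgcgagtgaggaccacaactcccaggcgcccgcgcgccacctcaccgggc
Slc39a5 (chr10:128401225-128401474, minus strand): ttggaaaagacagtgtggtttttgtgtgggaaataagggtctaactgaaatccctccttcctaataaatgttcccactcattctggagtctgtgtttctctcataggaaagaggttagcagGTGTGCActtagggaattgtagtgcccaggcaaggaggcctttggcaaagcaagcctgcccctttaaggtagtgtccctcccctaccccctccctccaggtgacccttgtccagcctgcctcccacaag
Slc30a1 (chr1:191906531-191906780, plus strand): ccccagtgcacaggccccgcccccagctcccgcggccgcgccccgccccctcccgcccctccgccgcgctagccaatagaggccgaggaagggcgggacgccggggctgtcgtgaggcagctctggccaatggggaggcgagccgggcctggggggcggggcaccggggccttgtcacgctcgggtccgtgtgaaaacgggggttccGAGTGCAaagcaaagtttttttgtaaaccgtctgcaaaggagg
Slc30a5 (chr13:100833428-100833677, minus strand): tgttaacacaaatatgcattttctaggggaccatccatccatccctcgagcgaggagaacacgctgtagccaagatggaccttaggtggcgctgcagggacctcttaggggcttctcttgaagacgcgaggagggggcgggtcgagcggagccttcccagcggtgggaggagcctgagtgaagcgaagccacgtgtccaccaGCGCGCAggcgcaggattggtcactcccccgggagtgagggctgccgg

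Counted from -1, the last base before the start, the core began at -238 in Slc31a2, -129 in Slc39a5, -43 in Slc30a1 and -48 in Slc30a5. Slc39a5 has another start in the table, whose window (chr10:128400467-128400716) held no core. The core was in a window of 10 of the 16 metal carriers (62.5%), of 34.7% of all carriers with a window, of 30.8% of measured genes and of 23.8% of all genes in the table. Within the metal class it was found in 5 of the 10 genes that rose and in 5 of the 6 that did not. Over all carriers it was in 18 of 32 that rose (56.2%), 4 of 12 that fell and 22 of 85 that did not pass (25.9%). Carriers that rose also had more windows a gene than those that did not pass (1.53 against 1.24) and a higher median GC content (61.0% against 56.0%), and the part of these in the shares was not tested. The consensus of NF-kappaB, a factor that LPS is known to activate, was in 1 of the 32 risers with a window, Slc7a7, and in 4 of the 12 that fell, Slc25a10, Slc29a1, Slc35b2 and Slc37a4, beside 5.34% of measured genes. These counts are small, and a match of letters is not a binding site. Carriers that fell had more windows a gene than measured genes (1.92 against 1.27), and the part of this in their share was not tested.

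Carriers of inorganic ions had 5 of 23 higher (21.74%, beside 16.8% of all genes) and 3 lower (13.04%, beside 14.6%), with a median of -0.03. Slc9a3, an exchanger of sodium for protons best known from gut and kidney epithelium, had ratios of 1.35, 0.64 and 1.5 with treated RNA in Cy5 and 1.31, 2.18 and 1.85 with it in Cy3. The arrays of set 2 lay farthest apart, 1 lowest and 1 highest of the 6. Its mean was 1.47 ± 0.18 (2.77-fold, adjusted p = 5.15e-05). Slc9a4, an exchanger of the same family known from the stomach, rose by 0.59 ± 0.14 (adjusted p = 0.00199), and Slc9a2, also of that family, had set values of -0.49, -0.55 and -0.65 and fell by 0.56 ± 0.08 (adjusted p = 0.00147). The family thus held genes that rose and a gene that fell.

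Slc12a4, a potassium and chloride cotransporter that lowers cell volume, had the smallest spread of the 15 largest rises. Its ratios were 0.92, 0.98 and 0.99 with treated RNA in Cy5 and 0.91, 0.78 and 0.91 with it in Cy3, and the mean was 0.92 ± 0.04 (1.89-fold, adjusted p = 0.000137). Slc12a7, of the same kind, rose by 0.35 ± 0.14 (adjusted p = 0.0165), and Slc20a1, a sodium-coupled phosphate carrier, by 0.49 ± 0.19 (adjusted p = 0.00671). Slc4a10, a bicarbonate carrier known from neurons, fell by 0.58 ± 0.22 (adjusted p = 0.00469), with arrays between -1.10 and -0.08. Slc26a2, a sulfate carrier, fell by 0.27 ± 0.03 (adjusted p = 0.024).

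Mitochondrial carriers of the Slc25 family were split evenly, with 4 of 22 higher, 4 lower and a median of -0.03. These shares, 18.2% each, lay near those of all genes, 16.8% higher and 14.6% lower. Slc25a37, which brings iron into mitochondria, had ratios of 0.88, 1.04 and 0.85 with treated RNA in Cy5 and 0.84, 0.96 and 0.87 with it in Cy3, all close together. It rose by 0.91 ± 0.08 (1.88-fold, adjusted p = 0.000176). Slc25a33, a carrier of pyrimidine nucleotides, had set values of 0.91, 0.86 and 0.66 and rose by 0.81 ± 0.13 (adjusted p = 0.000455), whereas its relative Slc25a36, also a carrier of pyrimidine nucleotides, had -0.65, -0.32 and -0.68 and fell by 0.55 ± 0.20 (adjusted p = 0.00471). Slc25a20, which exchanges acylcarnitine for carnitine so that fatty acids can be burned, rose by 0.53 ± 0.24 (adjusted p = 0.00783), with set 1 above the others. Slc25a25, an ATP-magnesium carrier, rose by 0.35 ± 0.18 (adjusted p = 0.023).

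Slc25a10, the dicarboxylate carrier that moves malate and succinate, had ratios of -0.35, -0.76 and -0.52 with treated RNA in Cy5 and -0.52, -0.76 and -0.55 with it in Cy3. All were below 0 and the mean was -0.58 ± 0.16 (adjusted p = 0.00263). Slc25a15, the ornithine carrier of the urea cycle, fell by 0.46 ± 0.03 (adjusted p = 0.00278), with set values of -0.45, -0.49 and -0.43 that hardly differed. Slc25a18, a glutamate carrier, fell by 0.29 ± 0.16 (adjusted p = 0.0406), a call that was lost in each fit on the 6 single arrays (adjusted p = 0.0539 to 0.16). Slc25a1, the citrate carrier, was above 0 on all 6 arrays at 0.25 ± 0.16 and did not pass (adjusted p = 0.0633).

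None of the 12 measured sugar carriers rose, beside 16.8% of all genes. Of the 12, 2 fell (16.7%, beside 14.6%), and the class median was -0.03. Slc2a3, a glucose carrier of high affinity, had the largest fall of all measured carriers. Its ratios were -1.32, -0.34 and -0.90 with treated RNA in Cy5 and -1.72, -0.79 and -1.34 with it in Cy3. Set 1 was lowest and set 2 nearest to 0 in both orientations, and no array reached 0. The mean was -1.07 ± 0.48, a 2.1-fold fall (adjusted p = 0.00317), and its 2 probes both gave -1.07. Slc37a4, which takes glucose 6-phosphate into the endoplasmic reticulum for the last step of glucose release, had ratios of -0.59, -0.55 and -0.64 with treated RNA in Cy5 and -0.70, -0.62 and -0.81 with it in Cy3 and fell by 0.65 ± 0.07 (1.57-fold, adjusted p = 0.000719). Its arrays were more even than those of Slc2a3. Slc37a2, a sugar phosphate exchanger of the same family known to be abundant in macrophages, had 6 arrays above 0 at 0.21 ± 0.07 and did not pass (adjusted p = 0.0637). Slc5a1, the sodium-coupled glucose carrier of the gut, was the highest of the class at 0.21 and did not pass (adjusted p = 0.173).

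**Figure D4:**
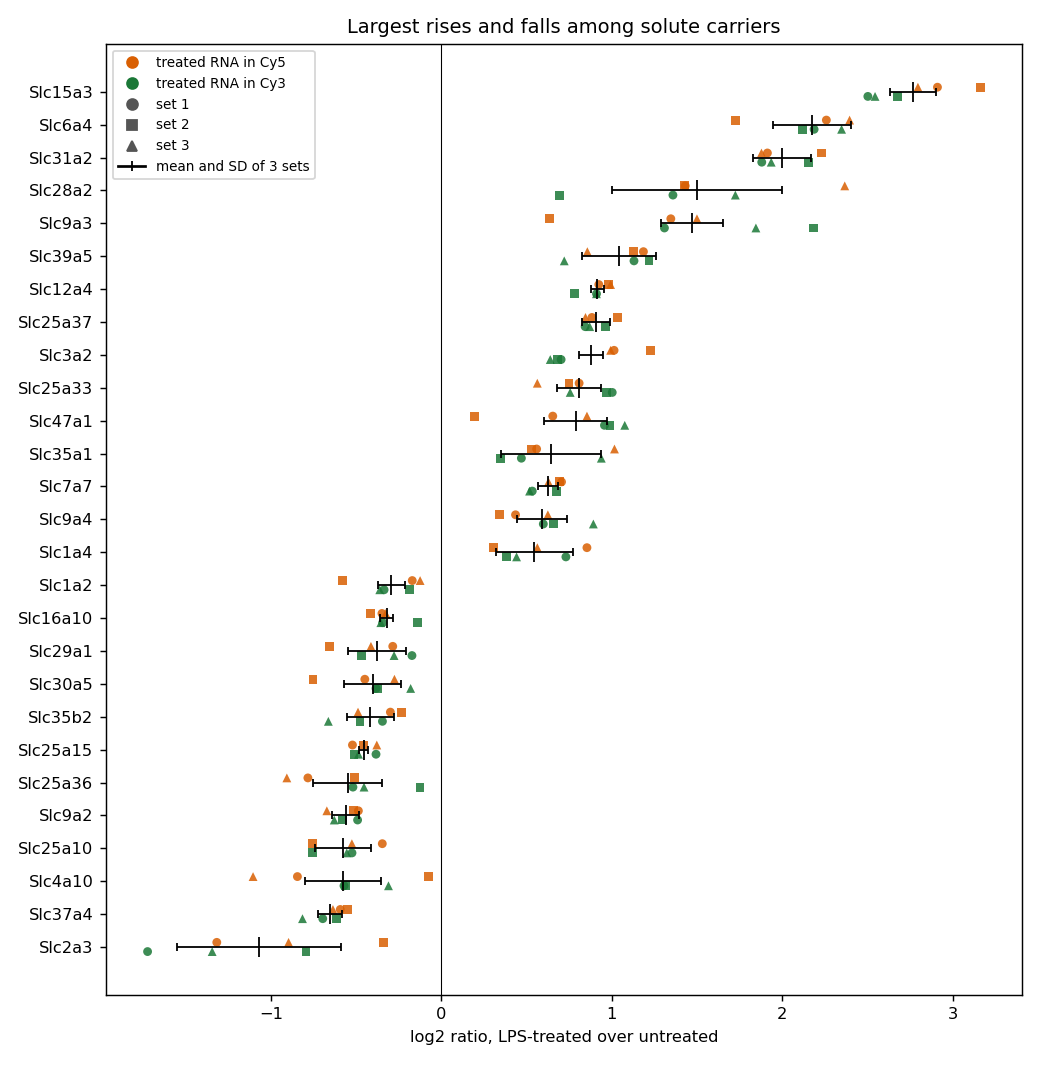
Log2 ratio of treated over untreated cells (horizontal axis) for the 15 largest rises and the 12 falls among carriers with adjusted p under 0.05 and one sign on all 6 arrays, 1 marker an array, with colour for the dye orientation, shape for the set, and bars for the mean and SD of the 3 sets. Slc15a3 is highest at 2.77 and Slc2a3 lowest at -1.07, and the arrays of Slc28a2, Slc9a3 and Slc2a3 spread widest.

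Of 5 nucleoside carriers 1 rose and 1 fell (20% each, beside 16.8% higher and 14.6% lower of all genes). Slc28a2, which uses sodium to concentrate purine nucleosides and uridine in the cell, had ratios of 1.43, 1.42 and 2.37 with treated RNA in Cy5 and 1.36, 0.70 and 1.72 with it in Cy3. Set 3 was highest in both orientations. The mean was 1.5 ± 0.50 (2.83-fold, adjusted p = 0.000869). Slc29a1, which lets nucleosides pass down their gradient at the cell surface, was below 0 on all arrays and fell by 0.38 ± 0.17 (adjusted p = 0.0154). Slc29a2, a second carrier of that kind, was also below 0 on all 6 arrays at -0.25 and did not pass (adjusted p = 0.0617). Slc29a3, which releases nucleosides from lysosomes, stood at 0.09 (adjusted p = 0.403).

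The Slc35 family carries nucleotide sugars and related donors into the Golgi and endoplasmic reticulum, where glycans are built and sulfated. Of its 13 measured members 3 rose (23.1%, beside 16.8% of all genes) and 1 fell (7.69%, beside 14.6%). Slc35a1, the carrier of CMP-sialic acid, had set values of 0.51, 0.44 and 0.98, with set 3 highest, and rose by 0.64 ± 0.29 (adjusted p = 0.00573). Slc35b2, which brings the sulfate donor into the Golgi, had -0.32, -0.35 and -0.58 and fell by 0.42 ± 0.14 (adjusted p = 0.00802). Slc35f5 and Slc35f6 rose by 0.32 (adjusted p = 0.0198) and 0.30 (adjusted p = 0.0342).

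The Slc6 family of sodium- and chloride-coupled carriers takes up neurotransmitters and amino acids. Of its 8 measured members 2 rose (25%, beside 16.8% of all genes). Slc6a4, the serotonin carrier that is the target of many antidepressants, had ratios of 2.26, 1.72 and 2.39 with treated RNA in Cy5 and 2.19, 2.12 and 2.35 with it in Cy3. All arrays lay between 1.72 and 2.39 and the groups of both orientations overlapped. The mean was 2.17 ± 0.23 (4.51-fold, adjusted p = 1.45e-05), and the probes gave 2.28 and 2.06. Slc6a9, a glycine carrier, rose by 0.47 ± 0.07 (adjusted p = 0.00303). The dopamine carrier Slc6a3 was the lowest of the family at -0.11 and did not pass (adjusted p = 0.319). A ratio shows no level, so these data do not say how much serotonin carrier RNA either state held.

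Carriers of organic ions and bile acids had 3 of 11 higher (27.3%, beside 16.8% of all genes) and none of the 11 lower (beside 14.6%). Slc47a1, an exporter of organic cations and drugs, had ratios of 0.65, 0.20 and 0.85 with treated RNA in Cy5 and 0.96, 0.99 and 1.08 with it in Cy3, with 1 array of set 2 well under the others, and rose by 0.79 ± 0.19 (1.73-fold, adjusted p = 0.000858). Slc22a17, known as a receptor for the iron-binding protein lipocalin 2, rose by 0.40 ± 0.16 (adjusted p = 0.011), and Slc10a7 by 0.24 ± 0.06 (adjusted p = 0.0366). Slc10a6, a carrier of steroid sulfates, was the lowest at -0.19 and did not pass (adjusted p = 0.0839).

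Of the smaller classes, the 7 carboxylate carriers had Slc16a9 higher by 0.31 ± 0.08 (adjusted p = 0.0178). Its ratios were 0.36, 0.75 and 0.53 with treated RNA in Cy5 and only 0.09, 0.02 and 0.08 with it in Cy3. The call was lost in the Cy3 arrays alone (limma, adjusted p = 0.622). Slc16a10, which lets aromatic amino acids and thyroid hormone pass, was lower at -0.32 ± 0.04 (adjusted p = 0.0122). The fatty acid carriers, which are also acyl-CoA synthetases, had Slc27a1 higher by 0.32 ± 0.10 (adjusted p = 0.0178) and Slc27a3 lower at -0.42 ± 0.14 (adjusted p = 0.00825), of 5. Among 8 carriers of vitamins, choline and cofactors only Slc23a2 passed, a sodium-coupled carrier of vitamin C, with set values of 0.06, 0.57 and 0.45 and a mean of 0.36 ± 0.26 (adjusted p = 0.0418). None of the 3 vesicular and Slc17 carriers and of the 2 urea carriers passed, and their ratios lay between -0.10 and 0.10. The rule also takes in 4 genes that are no carriers. These are Slc9a3r2, a scaffold protein at 0.14, Slc4a1ap at 0.10, the opposite-strand transcript Slc6a19os at 0.05 and the pseudogene Slc39a1-ps at 0.23, of which the last passed (adjusted p = 0.0489). Probe sequences were not analysed, so the pseudogene cannot be told apart from the gene it copies.

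**Figure D5:**
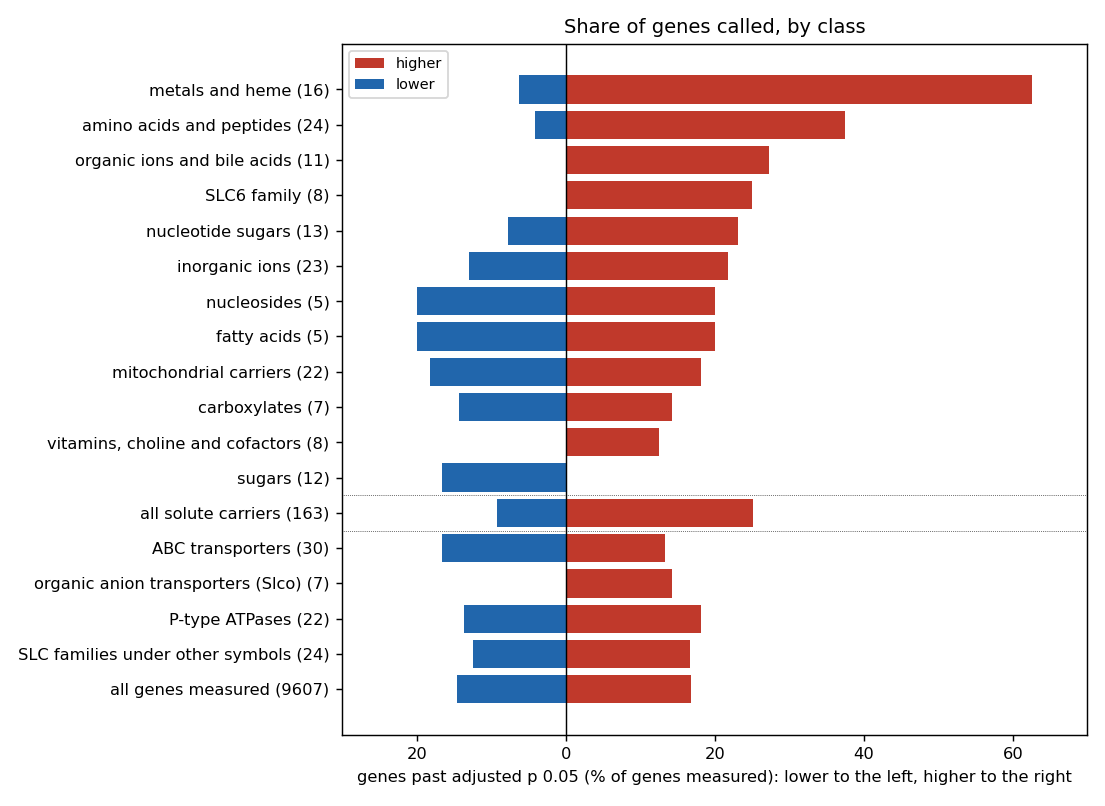
Share of measured genes (percent) that rose and that fell in treated cells at an adjusted p under 0.05, for each substrate class with at least 5 measured genes, all carriers, other transporter families and all genes, with lower to the left and higher to the right. Metal carriers have 10 of 16 higher, sugar carriers none of 12 higher and 2 lower, beside 16.8% higher and 14.6% lower over all genes.

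The classes are small and their members are not replicates, so no test was made between them, and the shares are a description of these genes. Of the classes with at least 5 measured genes, the metal carriers had the highest median, 0.27, and the nucleoside carriers the lowest, -0.07. The mitochondrial, sugar, nucleoside and fatty acid carriers had fewer genes above 0 in all sets than below it, 6 against 8, 2 against 5, 2 against 3 and 1 against 2, and the carboxylate carriers had 1 of each. The metal carriers had 12 against 2, and the amino acid and peptide carriers 11 against 3. Of all other genes 28.76% had all sets above 0 and 29.03% below.

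Other transporter families are given for comparison, also with no test between families. Over all genes 16.8% were higher and 14.6% lower. ABC transporters had 4 of 30 higher (13.3%) and 5 lower (16.7%). Among them were Abcd4 at 0.81 and Abcc1 at 0.59, which export cobalamin from lysosomes and conjugates from cells, and Abca2 at -0.51. P-type ATPases had 4 of 22 higher (18.2%) and 3 lower (13.6%), with the calcium pump Atp2b1 at 0.56 and the lysosomal Atp13a2 at -0.47. Organic anion transporters of the Slco family had 1 of 7 higher (14.3%) and none of the 7 lower. Of 24 genes that belong to solute carrier families under other symbols 4 rose (16.7%) and 3 fell (12.5%). Among them were the lysosomal protein Cln3 at 0.76 and the magnesium transporter Magt1 at -0.48.

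For some carriers set 3 stood apart from the other sets, and they did not pass. Slc30a4, a zinc carrier of vesicles, had set values of 0.08, 0.20 and 1.77 (adjusted p = 0.146), with both arrays of set 3 above 1.6 and the other 4 under 0.4. Slc25a23, an ATP-magnesium carrier, had -0.09, -0.13 and 1.46 (adjusted p = 0.361), and Slc12a2, a sodium, potassium and chloride cotransporter, had -0.62, -0.84 and 0.34 (adjusted p = 0.241). Slc12a2 was thus low in sets 1 and 2 and above 0 in set 3, and without set 3 it was called lower, at -0.73 (adjusted p = 3.07e-05). That fit rests on sets 1 and 2 alone and leaves out the set that disagreed, so it adds no support for a fall. Without set 3 the other carriers called that had not passed before were Slc25a1, Slc25a30, Slc25a46, Slc35a2, Slc35a5 and Slc39a11. Set 3 stood more than 0.5 from the mean of the other sets for 10 carriers, set 2 for 9 and set 1 for 3.

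Of the 56 called carriers, 48 had one sign on all 6 arrays, beside 2731 of the 3018 called genes of the whole array. Over all measured carriers 62 of 163 had, beside 35.6% of all genes. The call was kept without each of the 3 sets by 29 of the 56. It was lost without at least 1 set by the other 27, which were Slc10a7, Slc12a7, Slc16a10, Slc16a9, Slc1a2, Slc1a5, Slc22a17, Slc23a2, Slc25a18, Slc25a25, Slc26a2, Slc27a1, Slc29a1, Slc30a1, Slc30a5, Slc30a6, Slc30a7, Slc35f5, Slc35f6, Slc39a1-ps, Slc39a13, Slc39a7, Slc39a8, Slc39a9, Slc41a3, Slc7a1 and Slc7a3. None of the 15 largest rises is among these, but they were picked by size and sign from the same values, so this is no separate support.

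For 18 carriers a ratio was missing on at least 1 array, so that they have no test in the values above. Slc12a9 had 5 ratios, between 0.11 and 0.38, all above 0, and did not pass when genes with ratios in at least 2 sets were fitted (adjusted p = 0.0737). Slc6a6, the taurine carrier, had a single ratio of 1.78. Slc10a2, the bile acid carrier of the gut, had 2 ratios, -2.004 with treated RNA in Cy5 and 2.00 with it in Cy3 of set 1, so it gave no direction. The only member with no ratio at all was Slc5a4a. The others, Slc12a3, Slc1a1, Slc22a5, Slc22a8, Slc24a3, Slc25a27, Slc25a3, Slc2a5, Slc3a1, Slc46a2, Slc5a5, Slc5a7, Slc7a13 and Slc8a3, had ratios between -0.48 and 0.56 on 1 to 5 arrays.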

How the data were processed

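Deposited values were log2 ratios of the 2 channels of an array, judged from range and sign; how the authors corrected background and normalized them is not given in the sources used. The deposited log2 values reach 6.644, the log2 of 100, so larger ratios appear capped. An exact 0 was taken as no ratio given, which removed 44 of the 246 carrier probes, and the probes of a gene with ratios on all 6 arrays were averaged. Probes were named from the platform annotation, all 181 Entrez identifiers were found in the RefSeq table of GRCm38.p6, and 0 symbols changed. Another 2 probes name a carrier with a second gene and were left out by the rule.

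Arrays were turned to treated over untreated by the dyes in the labels, both orientations of a set number were averaged, and the 3 set values were tested against 0 for 9607 genes with limma 3.58.1 in R 4.3.3 (lmFit and eBayes, two-sided, Benjamini-Hochberg, threshold 0.05). Dye terms came from a limma fit on 6 arrays. Substrate classes follow SLC families. Figures were drawn with Python 3.11.15. The number of arrays limits the precision.

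Genes were named by a rule: the 15 largest rises and up to 15 largest falls among called carriers with one sign on all 6 arrays (12 such falls existed), the 2 highest and 2 lowest of each class, and members fixed by name; other members named were chosen after their values were seen. The members, classes and lists were chosen with earlier results of these data known. Alternatives covered sets left out, each dye orientation alone, zeros kept, probe choice, centring, quantile normalization, other models of the sets, and thresholds.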

Additional observations from a re-analysis of the deposited data

Results flagged for a closer look

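For 8 of 163 carriers (4.91%) all 3 arrays with treated RNA in Cy5 lay on one side of 0 and all 3 with it in Cy3 on the other, beside 618 of 9607 genes (6.43%). The difference itself was tested with the dye term of a limma fit on the 6 arrays, which is the amount added with treated RNA in Cy5 and taken away with it in Cy3. It passed for Slc7a1 alone, at -0.81, with orientation means of -0.52 for Cy5 and 1.11 for Cy3 (adjusted p = 0.00685). The other 7 did not pass, and each orientation mean is given with Cy5 before Cy3. The dye term was 0.20 for Slc14a2 (orientation means 0.10 and -0.29, adjusted p = 0.213), 0.24 for Slc27a2 (orientation means 0.22 and -0.26, adjusted p = 0.164), 0.14 for Slc2a2 (orientation means 0.17 and -0.12, adjusted p = 0.264), 0.35 for Slc38a4 (orientation means 0.29 and -0.41, adjusted p = 0.155), -0.0771 for Slc39a3 (orientation means -0.03 and 0.12, adjusted p = 0.534), 0.14 for Slc5a4b (orientation means 0.10 and -0.19, adjusted p = 0.244) and 0.22 for Slc6a19os (orientation means 0.27 and -0.17, adjusted p = 0.228). None of these 7 was called for treatment.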

How the results depend on the processing

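Over 17 alternatives, 1 of 163 carriers was called in the opposite direction, Slc7a1 at -0.521 in the Cy5 arrays alone. Single carriers lost their call in 195 and gained one in 78 of 2771 values. The number of changed carriers, 56, was 35 to 55 with a set left out and 34 with zeros kept (19.7% of 10698 genes called). It was 29 at a threshold of 0.01 and 8 when changes had to exceed 1.5-fold (limma's treat). The carrier share was 21.5% without set 1, 22.7% without set 2 and 33.7% without set 3, beside 22.5%, 23.6% and 31.1% of all genes. It was 18.8% with zeros kept, 17.8% at 0.01 and 4.91% beyond 1.5-fold, beside 19.7%, 18.9% and 4.68%. Without set 1 or 2, with zeros kept and at 0.01 it was thus below that of all genes, unlike in the main fit. The number higher, 41, was 25 to 38 with a set left out, 24 with zeros kept, 20 at 0.01 and 8 beyond 1.5-fold, and the number lower, 15, was 9 at 0.01, 0 beyond 1.5-fold and 10 to 17 with a set left out.

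Metal carriers that rose, 10, were 2 to 9 with a set left out, 5 with zeros kept, 3 in the Cy5 arrays, 2 at 0.01 and 2 beyond 1.5-fold. Amino acid and peptide carriers that rose, 9, were 1 beyond 1.5-fold. The 24 changed genes of other transporter families were 15 at 0.01 and 0 beyond 1.5-fold.

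Deviations from the orientation means correlated at 0.219, 0.0789 and 0.57 for the same-number arrays of sets 1, 2 and 3. The arrays of set 3 thus had the highest value, and they correlated with those of other numbers at -0.399 to -0.223. Deviations cancel within an orientation, so these correlations are tied to each other. The negative values follow from the 0.57 and add no support of their own. Sets 1 and 2 could not be told apart by this check, as arrays across them correlated at 0.208 and 0.168. With a fixed replicate block on 6 arrays 80 carriers were called (27 lower), 69 with no replicate block and 54 with a random replicate block. The fixed block lost 3 of the 56 and gained 27, no block lost 2 and gained 15, and the random block lost 7 and gained 5. Slc25a18 and Slc39a8 lost their call in all 3 fits. Slc29a2, Slc25a1, Slc37a2, Slc35a2 and Slc39a11 gained one in all 3. The random block also lost Slc1a2, Slc27a3, Slc30a1, Slc39a1-ps and Slc7a1.

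Several class medians near 0 took either sign with the setting. Those of the SLC6 family, of organic ions and bile acids and of metals stayed above 0 throughout, and that of sugars below it. In the Cy5 arrays alone the medians were 0.218 for the SLC6 family, 0.209 for amino acids and peptides, 0.0546 for fatty acids, -0.00854 for nucleosides, -0.146 for nucleotide sugars, 0.12 for organic ions and bile acids and 0.0927 for vitamins. In the Cy3 arrays alone they were 0.0499, -0.0344, -0.149, -0.253, 0.0497, 0.158 and -0.0709 for the same classes in that order, -0.0668 for inorganic ions, -0.138 for sugars and -0.00283 for all carriers. The means in place of medians were 0.12 for all carriers, 0.362 for the SLC6 family, 0.261 for amino acids and peptides, 0.0808 for inorganic ions, 0.359 for metals, 0.041 for mitochondrial carriers, 0.178 for nucleosides, 0.0336 for nucleotide sugars, 0.14 for organic ions and -0.155 for sugars. With zeros kept the medians were 0.00787 for inorganic ions and 0.0325 for organic ions, and with ratios in at least 2 sets 0.0585 for the SLC6 family. With a set left out they ran between 0.0844 and 0.163 for the SLC6 family, -0.12 and 0.00549 for fatty acids, -0.0379 and 0.0201 for inorganic ions, -0.0592 and 0.0312 for nucleotide sugars, and 0.0602 and 0.0904 for organic ions. The number of arrays limits what small changes can show, and the causes of these differences were not tested.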

Other observations

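Of other motifs read in the same windows of 250 bases, the E-box CACGTG was in 24 of 144 carriers (16.7%), beside 9.14% of measured genes and 6.86% of all genes. The C/EBP-ATF element TTGCATCA was in 3 carriers, Slc17a1, Slc50a1 and Slc7a7, beside 0.734% of measured genes, and of these Slc7a7 rose. The interferon response element GAAANNGAA was in 8 carriers (5.56%), beside 7.83% of measured genes, and the AP-1 site TGACTCA was in 8, beside 5.02%. No test was made of these shares, and both strands were read.

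The 33 carriers with several probes had a median gap of 0.216 between their highest and lowest probe, and 0 had probes called in opposite directions. The probes of Slc39a5, at 2.07 and 0.01, spanned most among the carriers with at least 2-fold rises, and which of the 2 stands for the transcript was not tested.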
